A study of Mus musculus with 4 samples.

Results

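The tumour necrosis factor (TNF) superfamily pairs ligands, most of them trimeric proteins anchored in the cell membrane, with cysteine-rich receptors. The members were all gene symbols in the deposited files that are Tnf, Lta, Ltb or Ltbr, or that carry the systematic names Tnfsf (ligands) or Tnfrsf (receptors) followed by a number. They came to 35 of 40213 symbols, 14 ligands and 21 receptors. Ligand binding clusters the receptors, which recruit TRAF adaptors and lead to NF-kB and kinase signalling. A subset of receptors carries a death domain that can recruit caspase-8 instead. In macrophages TNF is a central inflammatory product that also acts back on the cell through its own receptors, and RANK, another member, drives the differentiation of macrophage precursors into osteoclasts.

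Expression was measured by RNA sequencing in RAW264.7, a mouse macrophage cell line, with a title that places the series in work on a sprayable nanozyme hydrogel for diabetic wounds. Attached cells were kept for 48 h with material titled CuNZ@Gel (2 libraries) or Gel (2 libraries), and the single comparison is between these titles. Because the treatment text mentions only CuNZ@Gel, the Gel treatment is known from the titles alone, and CuNZ is not spelled out. No label states whether replicates came from different cultures, and p-values thus reflect only how far these libraries vary, which could be technical variation. The 35 members are accounted for in full, but 11 further genes of the superfamily have other symbols (such as Fas and Cd40), and these are given as a group of their own below.

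Library totals were 13717000 to 14879000 reads. Levels are in scaled CPM, that is, CPM divided by 1 further factor per library, and are not per length unless stated. The 10 macrophage markers all passed the filter, with summed levels of 9780 to 10052 scaled CPM in CuNZ@Gel and 6471 to 6674 in Gel, most of it Lyz2. Of these markers 6 were raised and 2 lowered (Cd68 and Fcgr1) in the test described below, in which 32.2% of all tested genes were raised and 34.8% lowered. Of the markers of other cell types, the T cell genes Cd3e, Cd3g and Cd2 and the B cell genes Ms4a1 and Blk were listed at 0 in all 4 libraries. Summed endothelial markers were 9.77 to 9.90 scaled CPM in CuNZ@Gel and 2.25 to 2.73 in Gel, most of it Vwf. Vwf and Pecam1 were raised, Pecam1 with 57 reads in CuNZ@Gel and 2 in Gel, and it met the filter only through CuNZ@Gel. Below the filter, Cdh5 had 12 reads in CuNZ@Gel and 1 in Gel, and Tek 12 and 0. The endothelial gene Emcn was listed at 0 in all libraries and Kdr had 2 reads in all. Summed T cell markers were 3.30 to 4.16 in CuNZ@Gel and 5.869 to 5.996 in Gel, most of it Lck. B cell markers summed to 2.22 to 2.52 and 0.797 to 0.856, fibroblast markers to 0.126 to 0.190 and 0.218 to 0.311, and epithelial markers to 0.504 to 0.571 and 1.09 to 1.87, in CuNZ@Gel and in Gel. Gm26917, a noncoding transcript, took 7.10% to 7.18% of the reads in CuNZ@Gel and 11.8% to 11.9% in Gel. The part of these differences in the results below was not tested.

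With CuNZ@Gel the superfamily did not move one way. The TRAIL receptors Tnfrsf10b, Tnfrsf22 and Tnfrsf23 rose several-fold, as did Tnfrsf26 beside them, while Tnf itself rose 1.45-fold. Both TNF receptors stayed within 1.5-fold of their Gel levels. Of the 35 members, 21 passed a filter (1 scaled CPM or more in 2 or more libraries) and were tested with limma across all genes. At a Benjamini-Hochberg adjusted p under 0.05, 9 of the 21 were raised, 4 were lowered and 8 were neither. Of the called members, Tnfrsf9, Tnfrsf10b and Tnfsf8 met the filter only through the group where they were higher. The same holds for Tnfrsf17, which was not called. Among all 11588 genes tested, 67.1% were called, with 32.2% raised and 34.8% lowered, so that the share of members called (13 of 21) is near the background. With libraries scaled by their totals alone, 10 members were raised and 1 was lowered, against 43.3% and 24.8% of all genes. After a length and GC correction it was 10 and 2, against 29.9% and 35.8%, and against a minimum fold of 1.5 it was 5 and 0 (1 lowered at an unadjusted p under 0.05), against 8.76% and 8.11%. Of the 7 ligands tested, 2 were raised and 1 lowered, and of the 14 receptors 7 were raised and 3 lowered. The median log2 change of the tested members was 0.05, against -0.03 for all tested genes. Both CuNZ@Gel libraries lay on one side of both Gel libraries for 14 of the 21 members, against 83.2% of all tested genes. Log2 changes use log2(scaled CPM + 1) and so understate the change of low genes, while folds are ratios of mean scaled CPM. A raised level in a bulk sample cannot be told apart from a larger share of cells that carry the transcript.

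**Figure D1:**
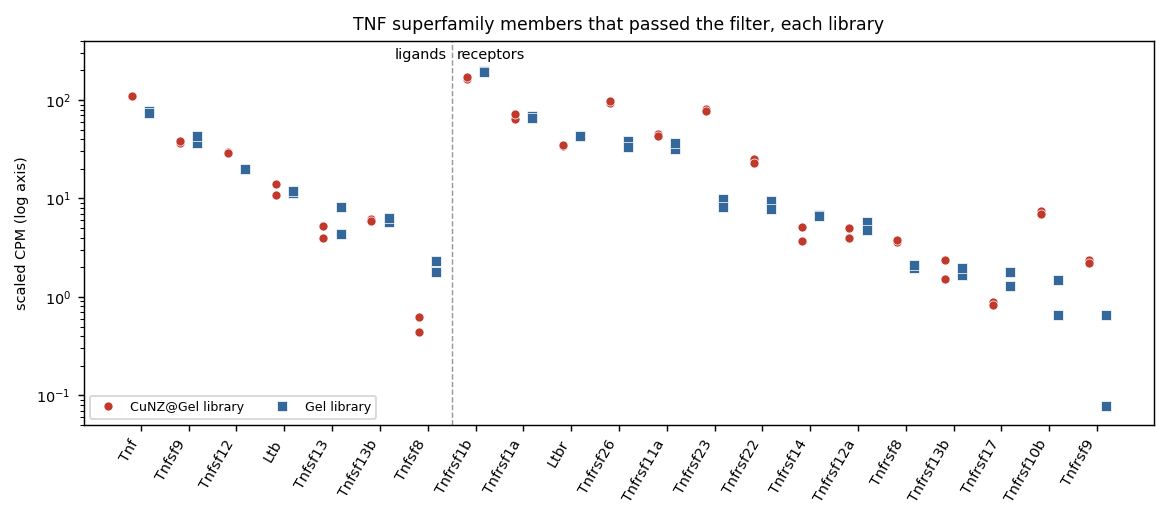
Scaled CPM (log axis) of the 21 tested members in each library, ligands on the left and receptors on the right, each ordered by mean level in Gel. Circles are the 2 CuNZ@Gel libraries and squares the 2 Gel libraries; Tnfrsf23 stands at 77.8 to 80.3 scaled CPM in CuNZ@Gel against 8.22 to 9.78 in Gel.

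Tnfrsf23 had the greatest log2 change of the tested members. It encodes a TRAIL-binding decoy receptor of the mouse that has no death domain. Its level was 80.3 and 77.8 scaled CPM in the CuNZ@Gel libraries, against 9.78 and 8.22 in the Gel libraries. The groups lie far apart and the replicates close together. The log2 change was 3.00 ± 0.10 (SE; limma adjusted p = 7.51e-16), an 8.78-fold difference of the means. Tnfrsf22, the second mouse decoy receptor for TRAIL, had 25.0 and 22.7 scaled CPM in CuNZ@Gel and 9.35 and 7.90 in Gel (2.77-fold, log2 change 1.37 ± 0.13, limma adjusted p = 5.63e-09). Tnfrsf26, which is the next gene beside Tnfrsf22, had 93.9 and 98.1 scaled CPM in CuNZ@Gel and 38.5 and 33.2 in Gel (2.68-fold, log2 change 1.40 ± 0.08, limma adjusted p = 5.38e-12). All of the CuNZ@Gel libraries were above all of the Gel libraries for each of these receptors.

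In the RefSeq gene table these 3 receptor genes follow each other on chromosome 7, in the order Tnfrsf26, Tnfrsf22, Tnfrsf23, between Cars and Osbpl5. Of the flanking genes, 1 was tested and fell. Cars, the cysteinyl-tRNA synthetase next to Tnfrsf26, had 78.1 and 75.4 scaled CPM in CuNZ@Gel and 232 and 223 in Gel, a log2 change of -1.56 (limma adjusted p = 1.92e-14). Osbpl5, on the other side, was below the filter at 5 and 11 reads in CuNZ@Gel and 1 and 3 reads in Gel. Within a library, per kilobase of the longest annotated transcript, Tnfrsf23 made up 39.8% and 38.5% of the summed level of the 3 receptors in CuNZ@Gel, against 16.6% and 16.3% in Gel. Tnfrsf26 made up 50.2% and 52.4% in CuNZ@Gel, against 70.6% and 71.1% in Gel. These shares do not depend on the scaling between libraries, but they do depend on which transcript length is used.

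**Figure D2:**
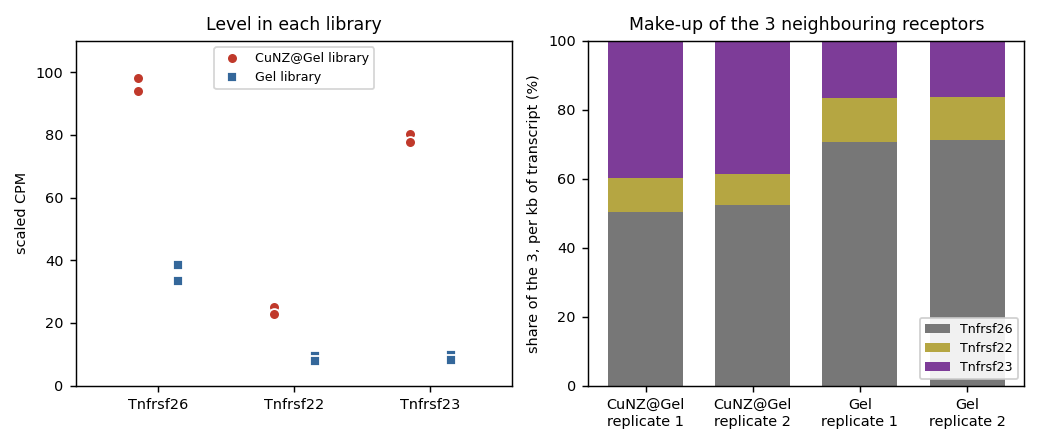
Left, scaled CPM of the 3 neighbouring receptors in each library, circles for CuNZ@Gel and squares for Gel. Right, the share of each in their summed level per kilobase, 1 bar per library; Tnfrsf23 takes 38.5% to 39.8% in CuNZ@Gel and 16.3% to 16.6% in Gel.

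The decoy receptors are close copies of each other, which bears on how their reads were counted. Their coding sequences in GENCODE vM21 were identical at 479 of 528 aligned bases (90.7%), and the longest exact run shared by any transcript of each was 306 bases. Tnfrsf26 shared 62.5% of aligned coding bases with Tnfrsf22 and 60.8% with Tnfrsf23, and exact runs of at most 18 bases. Reads from the shared stretches of Tnfrsf22 and Tnfrsf23 could have been split in counting, so their separate levels are uncertain, whereas those of Tnfrsf26 are less exposed. The first 90 bases of the longest ungapped coding alignment of the pair are shown here because they show both long identical runs and the bases that tell the copies apart. They cover coding bases 77 to 166 of Tnfrsf22 and 47 to 136 of Tnfrsf23, and capitals mark the 12 bases that differ.
Tnfrsf22: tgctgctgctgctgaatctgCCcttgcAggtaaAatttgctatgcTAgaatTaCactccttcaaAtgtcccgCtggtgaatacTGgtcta
Tnfrsf23: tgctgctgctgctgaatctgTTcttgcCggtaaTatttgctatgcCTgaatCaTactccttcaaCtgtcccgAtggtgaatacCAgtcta
E230032D23Rik, a long noncoding RNA gene that overlaps Tnfrsf23, moved with it, at 7.50 and 8.38 scaled CPM in CuNZ@Gel and 3.12 and 3.74 in Gel. The use of strand in counting is not given in the sources used here, so reads of the overlap cannot be assigned to one gene.

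Tnfrsf10b, Fas and Eda2r were low in Gel and higher in CuNZ@Gel. Tnfrsf10b, the mouse TRAIL receptor with a death domain and a known p53 target, had 7.50 and 6.92 scaled CPM in CuNZ@Gel, against 0.652 and 1.48 in Gel. On reads, this was 119 and 109 against 9 and 19, a ratio of 6.86 (95% exact counting interval 4.62 to 10.6). The groups did not overlap, and the log2 change was 2.02 ± 0.20 (limma adjusted p = 1.49e-08). Its ligand Tnfsf10 (TRAIL) stayed at the edge of detection, with 5 and 4 reads in CuNZ@Gel and 0 and 1 read in Gel. Fas, the death receptor for Fas ligand, is outside the systematic symbols and also a known p53 target. It had 7.63 and 7.36 scaled CPM in CuNZ@Gel and 1.16 and 1.32 in Gel (6.04-fold, log2 change 1.92, limma adjusted p = 4.09e-09). Fasl itself had a single read in all 4 libraries. Eda2r, the receptor for ectodysplasin A2, had 4.54 and 3.93 scaled CPM in CuNZ@Gel and 0.290 and 0.701 in Gel (log2 change 1.82, limma adjusted p = 1.04e-07), while its ligand gene Eda was listed at 0 in all 4 libraries. These receptors were thus higher in CuNZ@Gel while their ligand genes had few reads or none. Tnfrsf10b and Eda2r met the filter only through the CuNZ@Gel libraries, so their tests are not independent of the filter.

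Of the 11 superfamily genes with other symbols, 4 were tested, with 2 raised (Fas and Eda2r) and 1 lowered, against 32.2% and 34.8% of all tested genes. The lowered one was Relt, an orphan receptor, at 4.04 and 3.17 scaled CPM in CuNZ@Gel and 5.72 and 5.61 in Gel (log2 change -0.54, limma adjusted p = 0.00786). Relt no longer passed once length and GC were corrected for (-0.37, limma adjusted p = 0.0587), and likewise without CuNZ@Gel replicate 2 (-0.40, limma adjusted p = 0.0896). Cd40, the costimulatory receptor, had 1.70 and 1.78 scaled CPM in CuNZ@Gel and 2.03 and 3.19 in Gel and did not pass (limma adjusted p = 0.102), but passed without Gel replicate 1 (-0.61, limma adjusted p = 0.0238). Cd40lg, Cd27, Cd70, Ngfr and Edar were listed at 0 in every library.

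Tnfrsf9 and Tnfrsf8, receptors known from lymphocyte costimulation, rose. Tnfrsf9, an inducible costimulatory receptor, had 2.39 and 2.22 scaled CPM in CuNZ@Gel, against 0.652 and 0.0777 in Gel. These values stand on 38 and 35 reads against 9 and 1, and the Gel replicates differ from each other more than the CuNZ@Gel replicates do. The log2 change was 1.31 ± 0.23 (limma adjusted p = 3.41e-05), and the ratio of reads was 6.15 (95% exact counting interval 3.16 to 13.4). Tnfrsf9 met the filter only through the CuNZ@Gel libraries, where it was higher, so its test is not independent of the filter. Tnfsf9, its ligand, was an abundant member and did not pass, at 37.0 and 38.2 scaled CPM in CuNZ@Gel and 36.7 and 43.6 in Gel, with a 95% interval of the log2 change from -0.28 to 0.11. Receptor and ligand transcripts of this pair therefore differed in their outcome, and the difference between them was not tested. Tnfrsf8 (CD30) had 3.59 and 3.74 scaled CPM in CuNZ@Gel and 1.96 and 2.10 in Gel (log2 change 0.62 ± 0.18, limma adjusted p = 0.00450). Tnfsf8, its ligand, was the most strongly lowered member, at 0.630 and 0.444 scaled CPM in CuNZ@Gel and 1.81 and 2.34 in Gel. Its log2 change was -0.997 ± 0.21 (limma adjusted p = 2.77e-04) on 17 reads in CuNZ@Gel and 55 in Gel, a ratio of 0.260 (95% exact counting interval 0.142 to 0.455). Tnfsf8 met the filter only through the Gel libraries, where it was higher, so this test too depends on the filter.

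TNF and its receptors were among the most abundant members. Tnf had 111 and 109 scaled CPM in CuNZ@Gel, against 76.9 and 74.4 in Gel, and the groups did not overlap (1.45-fold, log2 change 0.54 ± 0.07, limma adjusted p = 8.67e-07). Tnfrsf1a, the widely expressed TNF receptor with a death domain, had 64.3 and 72.0 scaled CPM in CuNZ@Gel and 69.5 and 65.7 in Gel. These values overlap, and the 95% interval of the log2 change was -0.15 to 0.18 (limma adjusted p = 0.916). Under scaling by library totals alone Tnfrsf1a passed as raised (0.20, limma adjusted p = 0.0341), as it did after correction for length and GC content (0.22, limma adjusted p = 0.00757). Tnfrsf1b, the TNF receptor without a death domain, had 162 and 170 scaled CPM in CuNZ@Gel and 195 and 192 in Gel (log2 change -0.22 ± 0.06, limma adjusted p = 0.00369), but did not pass with total reads only (-0.03, limma adjusted p = 0.637). A ratio within a library is free of this scaling. Per kilobase, Tnfrsf1b over Tnfrsf1a was 1.42 and 1.33 in CuNZ@Gel, against 1.59 and 1.65 in Gel, and Tnf over Tnfrsf1b was 1.600 and 1.497 in CuNZ@Gel, against 0.917 and 0.904 in Gel. Both ratios separated the groups, with relatively more ligand and more Tnfrsf1a in the CuNZ@Gel libraries. In level per kilobase the leading members were Tnf (67.2), Tnfrsf1b (43.4), Tnfrsf1a (31.6) and Tnfrsf26 (30.9) in CuNZ@Gel, against Tnfrsf1b (50.7), Tnf (46.2), Tnfrsf1a (31.4) and Tnfsf9 (31.1) in Gel, all in scaled CPM per kilobase of the longest transcript.

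Tnf lies beside the lymphotoxin genes Lta and Ltb on chromosome 17, neither of which passed as raised with the deposited scaling. Ltb had 11.0 and 14.0 scaled CPM in CuNZ@Gel and 11.4 and 11.9 in Gel, with a 95% interval of the log2 change from -0.21 to 0.36 (limma adjusted p = 0.633). After correction for length and GC content, however, Ltb passed as raised (0.49, limma adjusted p = 0.00313). Lta was below the filter, at 10 and 8 reads in CuNZ@Gel and 10 and 3 in Gel. Ltbr, the lymphotoxin beta receptor, had 34.3 and 35.2 scaled CPM in CuNZ@Gel and 43.4 and 43.6 in Gel (log2 change -0.32 ± 0.09, limma adjusted p = 0.00304). Tnfrsf14 (HVEM), which shares the ligand LIGHT with it, had 3.72 and 5.14 in CuNZ@Gel and 6.74 and 6.62 in Gel (-0.51 ± 0.17, limma adjusted p = 0.0106). Neither receptor passed with total reads only (-0.13 and -0.35) or after the length and GC correction (0.00042 and -0.23), and Tnfrsf14 did not pass without CuNZ@Gel replicate 1 (-0.32, limma adjusted p = 0.155) or without the filter (limma adjusted p = 0.101). LIGHT itself, Tnfsf14, had 11 and 8 reads in CuNZ@Gel and 3 and 9 in Gel.

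**Figure D3:**
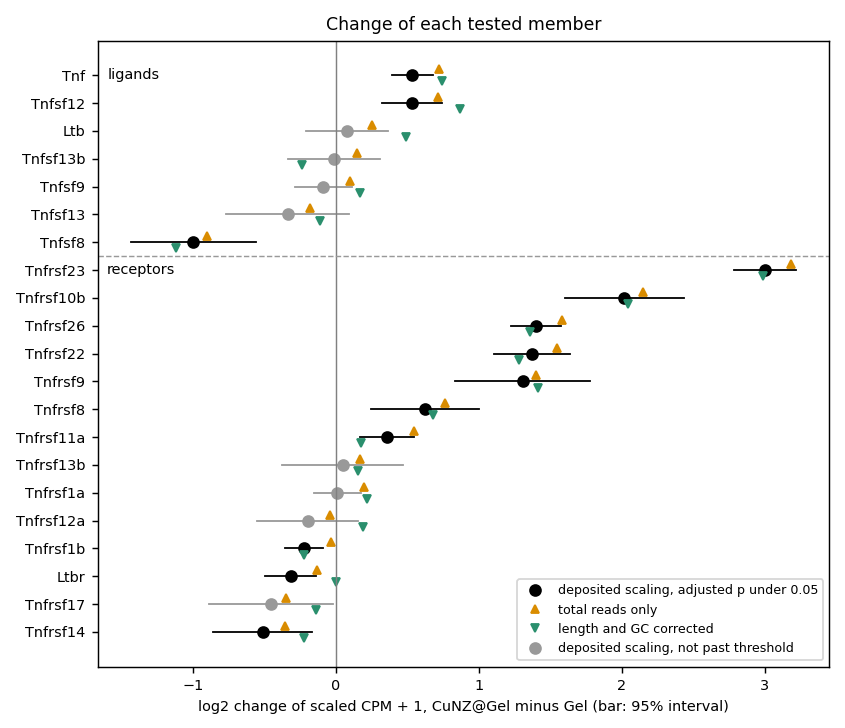
Log2 change (CuNZ@Gel minus Gel, log2 of scaled CPM + 1) of each tested member with its 95% interval, black where the adjusted p is under 0.05 and grey elsewhere. Triangles show the value with total reads only (up) and after length and GC correction (down); Tnfrsf23 lies at 3.00, and at 3.18 with total reads only, and Ltbr lies at -0.32, at -0.13 with total reads only and at 0.00042 after correction.

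In the TWEAK and RANK axes a ligand and a receptor rose by less than 1.5-fold. Tnfsf12 (TWEAK) had 29.9 and 28.8 scaled CPM in CuNZ@Gel and 19.92 and 20.04 in Gel (1.47-fold, log2 change 0.53 ± 0.10, limma adjusted p = 1.04e-04). Its receptor Tnfrsf12a (Fn14) overlapped between groups, at 3.97 and 5.01 in CuNZ@Gel and 5.72 and 4.83 in Gel (limma adjusted p = 0.315). Tnfrsf11a (RANK) had 44.9 and 43.3 scaled CPM in CuNZ@Gel and 32.1 and 36.3 in Gel (1.29-fold, log2 change 0.36 ± 0.09, limma adjusted p = 0.00158), and lost the call after the length and GC correction (0.17, limma adjusted p = 0.0675). The genes of its ligand RANKL (Tnfsf11) and of the soluble decoy osteoprotegerin (Tnfrsf11b) were listed at 0 in all 4 libraries.

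The BAFF and APRIL axis, which sustains B cells and plasma cells, gave no call in the fit to all libraries. Tnfsf13b (BAFF) had 6.12 and 5.90 scaled CPM in CuNZ@Gel and 5.80 and 6.38 in Gel, with a 95% interval of the log2 change from -0.34 to 0.31. Its receptors Tnfrsf13b (TACI) and Tnfrsf17 (BCMA) were low. Tnfrsf13b had 1.51 and 2.35 scaled CPM in CuNZ@Gel and 1.67 and 1.95 in Gel. Tnfrsf17 had 0.883 and 0.825 in CuNZ@Gel and 1.30 and 1.79 in Gel, did not overlap between groups and missed the threshold (log2 change -0.45, limma adjusted p = 0.0613), though it passed with mitochondrial and ribosomal RNA genes removed (-0.54, limma adjusted p = 0.0455). Tnfsf13 (APRIL) had 3.94 and 5.21 scaled CPM in CuNZ@Gel and 4.34 and 8.19 in Gel. Without Gel replicate 1 it passed as lowered (-0.73, limma adjusted p = 9.37e-04, against -0.34 and 0.152 with all libraries), so 1 library decides this value. Tnfsf13 and Tnfsf12 overlap the readthrough gene Tnfsfm13, which had 2.78 and 3.29 scaled CPM in CuNZ@Gel and 3.41 and 0.503 in Gel. Reads in the shared exons may have been split, and the values of Tnfsf12 and Tnfsf13 are uncertain to that extent.

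The 14 members below the filter were at most 12 reads in any library. Tnfrsf11b, Tnfrsf13c, Tnfrsf19, Tnfrsf21 and Tnfsf11 were listed at 0 throughout, where a count of 0 allows up to 0.189 to 0.190 scaled CPM in a CuNZ@Gel library and 0.217 to 0.234 in a Gel library (3 reads, counting error only). Tnfrsf25, Tnfsf15 and Tnfsf4 had 3, 1 and 1 reads in all. Tnfsf18, the ligand of the costimulatory receptor GITR, had 8 and 12 reads in CuNZ@Gel and 1 and 1 in Gel, a ratio of 8.43 (95% exact counting interval 2.05 to 74.3). Its receptor gene Tnfrsf18 had 5 and 2 reads in CuNZ@Gel and 1 and 0 in Gel, a ratio of 5.90 with an interval from 0.758 to 266. For Tnfsf10 the ratio was 7.58, with an interval from 1.05 to 332. Tnfrsf4 (OX40) had 7 and 4 reads in CuNZ@Gel and 4 and 4 in Gel. When the filter was dropped, Tnfsf18 and Tnfsf10 passed as raised (limma adjusted p = 0.0148 and 0.0316).

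**Figure D4:**
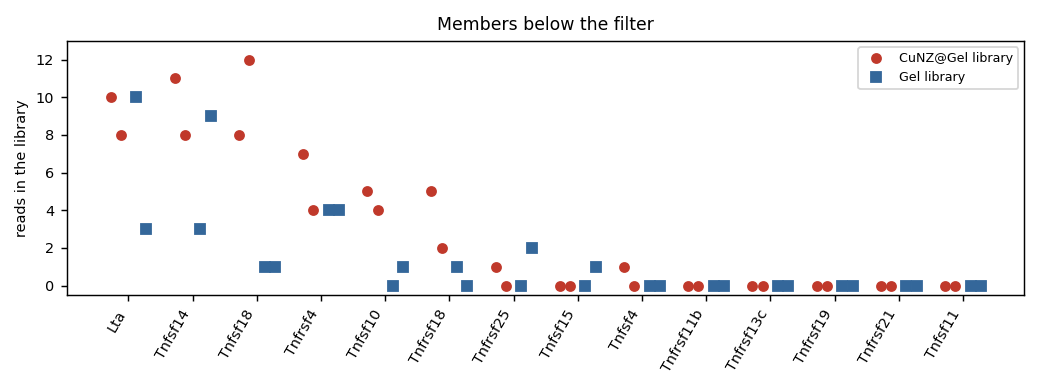
Reads recovered in each library for the 14 members below the filter, circles for the 2 CuNZ@Gel libraries and squares for the 2 Gel libraries. Tnfsf18 stands at 8 and 12 reads in CuNZ@Gel and 1 and 1 in Gel, and 5 members lie at 0 in all libraries.

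Promoter sequences from RefSeq (GRCm38.p6, 250 bases before to 50 after the start site) were found for 28 members, in 32 windows. Tnfrsf10b, Tnfrsf11b, Tnfrsf22, Tnfrsf26, Tnfsf12, Tnfsf4 and Tnfsf9 had no entry. Both strands were searched for an NF-kB kind of motif (GGG, any 2 bases, TTTCC), the AP-1 kind TGACTCA, the antioxidant response kind TGACNNNGC and a p53 kind (CATG, any 6 bases, CATG), and where matches overlapped each was counted. The NF-kB kind was found in 3 of the 28 members (Ltb, Tnfrsf9 and Tnfrsf25), against 1.89% of all 27025 genes with a window, a gene being counted where any of its windows held a match. The AP-1 kind was found in 5 members, against 5.95% of all genes, and the antioxidant response kind in 7, against 13.99%. The p53 kind was found in no member, and in 0.833% of all genes. A match is only a run of letters, and no match says only that these letters are absent from this window. The windows of Tnfrsf23 and Tnf are shown as those of the member with the greatest change and of the founding ligand, and neither holds any of these motifs. Of the windows of Tnfrsf9, the one shown holds both the NF-kB and the AP-1 kinds. Capitals mark the motif matches.
Tnfrsf23 promoter, chr7:143685826-143686125, minus strand: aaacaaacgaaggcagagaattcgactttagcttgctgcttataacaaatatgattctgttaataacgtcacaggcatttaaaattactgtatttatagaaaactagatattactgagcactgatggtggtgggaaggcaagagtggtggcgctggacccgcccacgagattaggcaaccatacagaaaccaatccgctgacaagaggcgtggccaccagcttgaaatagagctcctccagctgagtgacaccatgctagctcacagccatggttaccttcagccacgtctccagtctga
Tnf promoter, chr17:35201958-35202257, minus strand: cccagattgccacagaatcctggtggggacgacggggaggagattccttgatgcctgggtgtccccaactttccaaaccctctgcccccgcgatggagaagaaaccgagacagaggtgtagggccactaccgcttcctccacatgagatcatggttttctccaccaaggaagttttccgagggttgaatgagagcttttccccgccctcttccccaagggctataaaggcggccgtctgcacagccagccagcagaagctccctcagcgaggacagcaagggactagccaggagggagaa
Tnfrsf9 promoter, chr4:150927749-150928048, plus strand: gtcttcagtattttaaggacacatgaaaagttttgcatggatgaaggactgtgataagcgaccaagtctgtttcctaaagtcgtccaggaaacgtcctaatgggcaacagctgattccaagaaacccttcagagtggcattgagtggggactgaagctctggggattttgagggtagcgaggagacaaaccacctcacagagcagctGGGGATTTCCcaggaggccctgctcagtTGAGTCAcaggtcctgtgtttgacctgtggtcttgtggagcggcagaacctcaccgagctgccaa

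Genes that act around the receptors were described from lists of the pathway. Unless another share is given, each count is to be set beside the 32.2% of all tested genes that were raised and the 34.8% that were lowered. In the death branch 9 of 11 tested genes rose and 0 fell (median 0.38 in log2 change). With a minimum fold of 1.5, 2 rose, against 8.76% of all tested genes. At an unadjusted p under 0.05 the number lowered was 0 with limma and 0 with limma-voom. Mlkl, the pore-forming executor of necroptosis, had 43.5 and 44.5 scaled CPM in CuNZ@Gel and 8.47 and 10.5 in Gel (4.64-fold, log2 change 2.11, limma adjusted p = 1.44e-12). Bid, which links caspase-8 to mitochondria, rose 1.52-fold, and Xiap, a caspase inhibitor, 1.45-fold. Casp8 and its regulator Cflar were raised 1.22-fold and 1.29-fold. The call of Casp8 was lost without Gel replicate 2 (0.23, limma adjusted p = 0.0694) and that of Cflar after the length and GC correction (0.02, limma adjusted p = 0.817). Bax and Diablo did not pass, at log2 changes of 0.14 and -0.02. Bax, Diablo and Fadd were named after their values were seen. Fadd, the adaptor that joins death receptors to caspase-8, is in the list of adaptors and was lowered, at 10.5 and 9.90 scaled CPM in CuNZ@Gel and 22.2 and 19.9 in Gel.

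Of 29 receptor-proximal adaptors and enzymes, 11 rose and 8 fell (median 0.02), near the 32.2% and 34.8% of all tested genes. Ikbkg (NEMO), the regulatory subunit of the IkB kinase, had 90.8 and 84.7 scaled CPM in CuNZ@Gel and 29.9 and 33.0 in Gel, a 2.79-fold difference. Map3k7 (TAK1) rose 1.81-fold and Ripk1, the kinase recruited to Tnfrsf1a, 1.56-fold. Otulin, which removes linear ubiquitin chains, was lowered to 35.9 and 38.3 scaled CPM in CuNZ@Gel, against 75.4 and 64.7 in Gel. The genes of the complex that makes these chains, Rnf31, Rbck1 and Sharpin, named after their values were seen, were lowered as well, by log2 changes of -0.53, -0.60 and -0.48. Among the TRAF adaptors, Traf1 and Traf2 were lowered (-1.14 and -0.53), while Traf3 and Traf4, named after their values were seen, were raised (0.82 and 1.26). Tnfaip3 (A20), a feedback inhibitor of TNF signalling, did not pass, at 6.93 and 6.35 scaled CPM in CuNZ@Gel and 8.62 and 8.25 in Gel (limma adjusted p = 0.0711), but passed as lowered after the length and GC correction (-0.59, limma adjusted p = 0.00139).

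Of 10 NF-kB subunit and inhibitor genes, 2 were raised and 6 lowered (4 with total reads only; median -0.36), against 32.2% and 34.8% of all tested genes. The inhibitors Nfkbia and Nfkbib fell (-0.55 and -0.69), as did Nfkbiz (-0.68) and the subunit gene Nfkb1 (-0.41). Relb and Bcl3, named after their values were seen, were lowered too (-0.31 and -0.43). Nfkbia, itself an NF-kB target, had 97.0 and 109 scaled CPM in CuNZ@Gel and 158 and 143 in Gel. The raised ones were the subunit genes Rela and Rel (0.31 and 0.22), named after their values were seen. After the length and GC correction, 1 of the 10 genes was raised, against 29.9% of all tested genes. With the replicate number as a block it was also 1, where all genes gave 3589 raised. The number raised was smaller as well when any 1 library was left out.

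**Figure D5:**
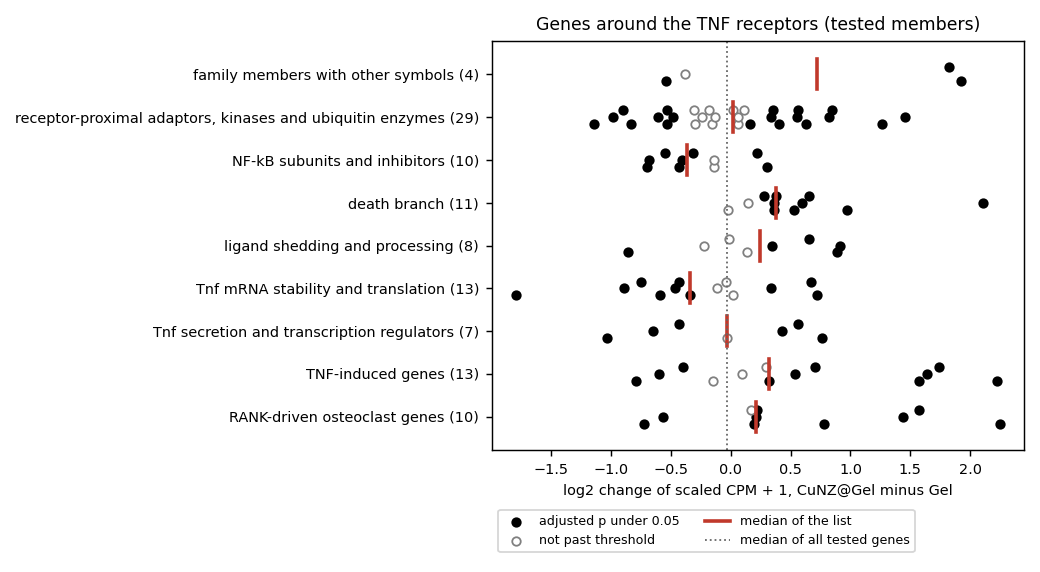
Log2 change (CuNZ@Gel minus Gel) of the tested genes of each list, filled where the adjusted p is under 0.05, with the median of the list (bar) and of all tested genes (dotted line, -0.03). The number tested is in brackets; in the death branch 9 of 11 genes are filled and lie above 0.

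Ligands are cut from the membrane by proteases, and Tnf mRNA is held in check by proteins that bind its AU-rich element. In the shedding list 4 of 8 genes were raised and 1 was lowered (median 0.24), against 32.2% and 34.8% of all tested genes. Adam17, the protease that releases TNF, had 293 and 290 scaled CPM in CuNZ@Gel and 181 and 188 in Gel (1.58-fold, limma adjusted p = 5.51e-09). Its cofactor Rhbdf2 (iRhom2) rose 1.92-fold and Sppl2a, which cleaves the TNF stub left in the membrane, 1.86-fold. Furin, a proprotein convertase, fell to 33.7 and 32.5 scaled CPM in CuNZ@Gel, against 60.3 and 61.3 in Gel. In the list of Tnf mRNA stability and translation, 7 of 13 genes were lowered and 3 raised (median -0.34), against 34.8% and 32.2% of all tested genes. Zfp36 (tristetraprolin), which destabilizes Tnf mRNA, had 75.0 and 77.2 scaled CPM in CuNZ@Gel and 133 and 124 in Gel (log2 change -0.75, limma adjusted p = 6.65e-09). Its relative Zfp36l1 had 40.2 and 39.0 in CuNZ@Gel and 140 and 139 in Gel (-1.79, limma adjusted p = 1.11e-14). Hnrnpd (AUF1) and Mapkapk2, the kinase that inactivates tristetraprolin, fell by 0.89 and 0.59. The members that fell therefore include both genes that restrain Tnf mRNA and genes that favour it. The raised ones, named after their values were seen, were Rc3h1, Rc3h2 and Mapk14 (0.72, 0.67 and 0.33). Of 7 regulators of Tnf transcription and secretion, 3 rose and 3 fell (median -0.03), with Egr1, Fos and Jun lowered (-1.03, -0.65 and -0.43) and Nfatc2 raised (0.57).

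In a list set up for genes induced by TNF, 7 of 13 tested were raised and 3 lowered (median 0.32), against 32.2% and 34.8% of all tested genes. With total reads only it was 8 and 1, against 43.3% and 24.8%. The number lowered was 1 without CuNZ@Gel replicate 1 and 2 without Gel replicate 1 or Gel replicate 2. The chemokine gene Ccl2 had 12.0 and 13.2 scaled CPM in CuNZ@Gel and 1.23 and 2.80 in Gel (6.24-fold, limma adjusted p = 3.41e-09). Plaur, the urokinase receptor, rose 3.60-fold, Ptgs2, the inducible cyclooxygenase, 3.38-fold, and the adhesion molecule gene Icam1 1.64-fold. Il1b, also raised and named after its values were seen, had 38 and 50 reads in CuNZ@Gel and 3 and 4 in Gel. It met the filter only through the CuNZ@Gel libraries, so its place among the raised genes depends on the filter. The lowered ones, named after their values were seen, were Cxcl2, Csf1 and Tnfaip8l2 (-0.40, -0.60 and -0.79). Tnfaip8l2 encodes a brake on immune signalling. It is on the list by its name, and whether TNF induces it was not tested. Vcam1, Cxcl1, Il6 and Ccl20 were listed at 0 in all libraries. Of the genes driven by RANK in osteoclasts, 7 of 10 tested were raised and 2 lowered (median 0.22), against 32.2% and 34.8% of all tested genes. After the length and GC correction it was 5 and 2, against 29.9% and 35.8%. Dcstamp, needed for osteoclast fusion, had 46.8 and 57.9 scaled CPM in CuNZ@Gel and 9.49 and 10.9 in Gel (5.14-fold, limma adjusted p = 5.44e-13). Ocstamp, also raised and named after its values were seen, had 35 and 40 reads in CuNZ@Gel and 6 and 1 in Gel. It met the filter only through the CuNZ@Gel libraries, so its place among the raised genes depends on the filter. Src rose 3.32-fold and Fosl2 1.73-fold, while Atp6v0d2, a proton pump subunit, fell to 106 and 104 scaled CPM in CuNZ@Gel, against 170 and 178 in Gel. Nfatc1, the master transcription factor downstream of RANK, rose 1.15-fold (limma adjusted p = 0.0220), but this call was lost after the length and GC correction (0.10, limma adjusted p = 0.165) and with the replicate number as a block (limma adjusted p = 0.0631). It was also lost without Gel replicate 1, Gel replicate 2 or CuNZ@Gel replicate 1 (limma adjusted p = 0.108, 0.087 and 0.119).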

How the data were processed

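Per the labels' protocols, RNAiso Plus (TaKaRa) gave the RNA, and the CORALL RNA-seq V2 kit the libraries. The tools fastp, STAR, Salmon and GATK and the build GRCm39 are named, per the submitters' processing notes. Not given in the sources used here are their versions and roles, the annotation, the use of strand and the normalization. The deposited files held 1 log2 value per symbol and library, found from the values to be log2(x + 1), where x is scaled CPM. In each library 1 step size turned 92.7% to 93.5% of the low values into whole reads (within 0.02 reads), and the reads were recovered with it.

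The test was limma 3.58.1 (R 4.3.3) on genes at 1 scaled CPM or more in 2 or more libraries, with a variance trend, the group alone and all 4 libraries. Benjamini-Hochberg adjustment ran over all genes tested, at 0.05. The procedure was tested on simulated data, where it called 34% of the genes changed 1.25-fold and 86% of those changed 1.5-fold. Of its calls there, 5.88% were false. Far fewer genes were changed in the simulation than were called in these data, so it does not give the error rate of the present calls. Length and GC were those of a gene's longest GENCODE vM21 transcript, found for 95.6% of tested genes. That build differs from the authors', so it gave no coordinates for the measurements. Every tested member is named. From each list, the text names up to 4 genes with the smallest p, all genes of the superfamily with other symbols and 10 anchors, and it says where others were chosen after their values were seen. Some genes that this rule or the marker lists hold are not reported here. The members and lists were chosen with earlier results of these data known. The planned comparison of proteins was not made, since no protein sequences were used here. Across genes, which are no independent replicates, the libraries of a group had a Pearson r of 0.995. The chi-square per gene was 4.34 for the CuNZ@Gel pair and 3.67 for the Gel pair, so that neither pair agreed within sampling noise.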

Additional observations from a re-analysis of the deposited data

How the results depend on the processing

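The fit was repeated with 15 other settings, and with a crossed block chosen after seeing the data. With total reads only, the median log2 change of all genes moved by 0.18, 10 members were raised and 1 was lowered (9 and 4 with the deposited scaling), and all genes gave 5016 raised and 2871 lowered (3737 and 4033). After correction for length and GC content, 10 members were raised and 2 lowered, and Ltbr stood at 0.00042. Against a minimum fold of 1.5, 5 members were raised and 0 lowered with limma (1 lowered at an unadjusted p under 0.05), and all genes gave 1015 and 940. Leaving out 1 library gave 9 members raised each time, 3 to 5 lowered, and 3096 to 3411 genes raised and 3419 to 3653 lowered. Tnfrsf23, Tnfrsf26, Tnfrsf22, Tnfrsf10b and Tnfrsf9 kept their call in every alternative that tested them, and none of the lowered members did so. Tnfrsf10b and Tnfrsf9 met the filter only through the CuNZ@Gel libraries, and most alternatives kept this filter, so their calls there depend on it. In the fits with other results the cause was not tested.

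With the replicate number as a block, 9 members were raised and 4 lowered, and all genes gave 3589 and 3900. Deviations of same-numbered libraries correlated at -0.116, and a crossed block gave 9 and 4 members and 4030 and 4340 genes. Low members rest on at most 12 reads a library, and single reads decide their ratios.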
